A study of Mus musculus with 64 samples.

Results

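LSK cells are lineage-negative, Sca-1+ and c-Kit+ blood progenitors. The gate holds the hematopoietic stem cells and the earliest multipotent progenitors, which in fetal liver divide and feed every blood lineage. This comparison takes the LSK count files titled HT, from fetuses with 1 working Smarcd2 copy (genotype label Smarcd2 +/-, called HET), against those titled WT, from fetuses with both copies. It holds 14 of the 64 libraries of the series, 9 HET and 5 WT. The 9 LSK libraries from fetuses without a working copy (Smarcd2 -/-, called KO) are given side by side with them. All 23 came from livers of C57BL/6 fetuses at 13/14 dpc, and the labels give each a sex: 5 female and 4 male HET, 4 female and 1 male WT, 5 female and 4 male KO. How the allele was made was not stated in the labels. The titles point to separate fetuses, but no label says that each library is 1 animal, so p-values measure the spread between these libraries.

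Smarcd2 encodes BAF60B, a subunit of the BAF (mammalian SWI/SNF) complex, which moves nucleosomes and so opens chromatin at enhancers and promoters. Smarcd1 and Smarcd3 encode the other two BAF60 subunits, and a complex carries one of them. SMARCD2 is best known in blood for its role in the maturation of granulocytes, whose specific granules are missing when it is lost. Its neighbour Psmc5 encodes Rpt6, one of the ATPases at the base of the 19S cap of the proteasome, which unfolds proteins before they are cut up.

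Reads in genes ranged from 4439304 to 7381611 in the WT libraries and from 5074558 to 24069833 in the HET libraries, and spike-in RNA took 0.516% ± 0.139 (SD, n = 5) of the reads in WT and 0.627% ± 0.163 (SD, n = 9) in HET. Levels below are CPM, read counts scaled to the size of the library by the TMM method, without spike-ins. Reads carry no molecular identifiers and no strand. The first number of a title, 19 to 24, is called its series. The libraries of series 22 and 24 stood apart from those of series 19 to 21: the summed CPM of 23 macrophage and monocyte genes was 539 to 1239 in the WT and HET libraries of series 19 to 21 and 2576 to 3908 in those of series 22 and 24. Fewer or more cells of a type and less or more RNA per cell cannot be told apart in such bulk libraries. Of the genes of the gate, Kit, the c-Kit receptor, was at 524 to 733 CPM in WT and 556 to 775 CPM in HET, and Ly6a, which encodes Sca-1, at 12.3 to 30.4 CPM in WT and 9.62 to 32.8 CPM in HET. Of lineage genes, Itgam (CD11b) was present at 39.8 to 80.9 CPM in WT and 44.3 to 79.5 CPM in HET, the T cell gene Cd3e was at 0 CPM in every WT library and reached 0.74 CPM in HET, and the neutrophil gene Ly6g was at 0 CPM in all. The libraries labelled HT19.1 and HT21.4 carry the label male, but Xist, the RNA of the inactive X chromosome, was at 215 and 185 CPM there and the Y-linked gene Ddx3y at 0 and 0.61 CPM. The library labelled HT20.5 had a Smarcd2 level among the WT libraries. Values without these libraries are given where they bear on a result.

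Smarcd2 RNA was lower in HET libraries, with 1 exception. It was at 56.4, 70.4, 53.1, 50.4 and 49.4 CPM in the libraries WT19.2, WT21.1, WT21.5, WT22.8 and WT24.10. In the HET libraries it was at 40.5 CPM in HT19.1, 33.5 in HT19.3, 31.9 in HT19.4, 34.9 in HT20.4, 67.4 in HT20.5, 25.1 in HT21.4, 21.9 in HT21.6, 23.3 in HT22.6 and 24.8 in HT24.2. So 8 of 9 HET libraries lay below every WT library, and HT20.5, which is also the library with the most reads, lay inside the WT range. The KO libraries lay between 0.85 and 1.94 CPM, which sets them apart from both other groups. Mean levels were 55.9 ± 8.54 CPM in WT (SD, n = 5), 33.7 ± 14.1 in HET (SD, n = 9) and 1.28 ± 0.411 in KO (SD, n = 9).

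The HET level was 0.602 ± 0.0935 (SE) of the WT level with all 9 libraries and 0.527 ± 0.0553 (SE) without HT20.5. The exact permutation test of the means gave a two-sided p of 0.00899 with all 9 and 0.000777 without HT20.5. HT20.5 was set aside for its Smarcd2 level itself. Without it the groups do not overlap, and 0.000777 is the smallest p that test can give. The values without HT20.5, here and in edgeR, are thus descriptions and no separate support. In the edgeR model over all genes the log2 fold change was -0.72 ± 0.19 (SE) with an adjusted p of 0.307, which did not pass 0.05. It was -0.92 with an adjusted p of 0.00531 without HT20.5, and -1.02 with an adjusted p of 0.015 when series entered as a block. Smarcd1 was at 27.8 ± 3.66 CPM in WT (SD, n = 5) and 30.5 ± 3.5 in HET (SD, n = 9), a log2 difference of 0.13 ± 0.10 (SE) with an adjusted p of 0.622. Smarcd3 was too low to be tested, at no more than 0.66 CPM in any WT or HET library.

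Psmc5 was the single gene that passed the test between HET and WT, out of 13878 tested (0.00721%). It was at 258, 234, 220, 237 and 232 CPM in the libraries WT19.2, WT21.1, WT21.5, WT22.8 and WT24.10, and at 169, 163, 155, 137, 177, 161, 164, 164 and 165 CPM in HT19.1, HT19.3, HT19.4, HT20.4, HT20.5, HT21.4, HT21.6, HT22.6 and HT24.2. All 9 HET libraries lay below every WT library, HT20.5 included, and the 9 KO libraries, at 70.2 to 90.7 CPM, lay below every HET library. Genes with all 9 HET libraries below every WT library numbered 15 (0.108%), and genes with all 9 above every WT library numbered 11 (0.0793%).

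Psmc5 fell in HET by 0.55 ± 0.07 (SE) on the log2 scale with an adjusted p of 0.000109 (edgeR). The exact permutation test gave a two-sided p of 0.0004995. With the HET and WT libraries fully apart, that is the smallest p the test can give. Psmc5 was already known to be the gene that passed, so this p is no separate support. Its level was 0.684 ± 0.0238 (SE) of WT, and its drop in CPM was 48.4% of the drop in KO. The log2 fold change was -0.56 within series 19 to 21 and -0.52 within series 22 and 24, where the smaller numbers of libraries gave adjusted p of 0.0677 and 0.837. Without HT19.1 and HT21.4 it was -0.55 with an adjusted p of 0.000895.

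**Figure D1:**
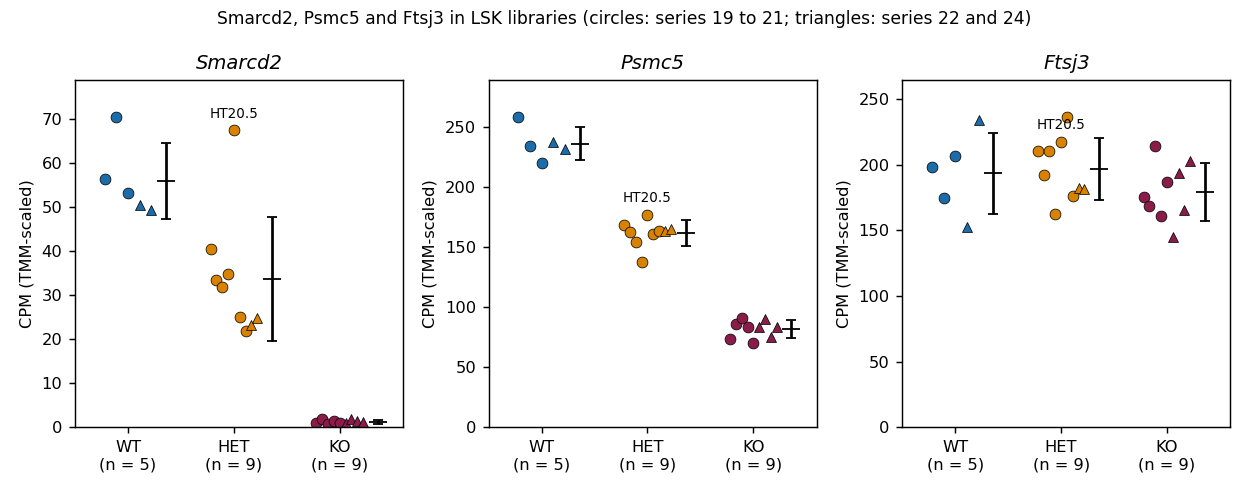
CPM of Smarcd2, Psmc5 and Ftsj3 in the 5 WT, 9 HET and 9 KO LSK libraries, 1 point per library, with the mean ± SD beside each group. Psmc5 shows 3 groups that do not overlap, Smarcd2 shows HT20.5 among the WT libraries, and Ftsj3 shows overlapping groups.

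Psmc5 and Smarcd2 are neighbours on mouse chromosome 11 (GRCm38). Psmc5 runs on the plus strand from 106256154 to 106263120 and Smarcd2 on the minus strand from 106263179 to 106272972, so their 3′ ends face each other with 58 bases between them. On its other side Psmc5 shares a promoter region with Ftsj3, an rRNA methyltransferase gene on the minus strand, whose start lies 74 bases away. That stretch is shown because the 2 genes that start at its ends differed in their response. It is chr11:106256080-106256153, plus strand, from the RefSeq promoter table on GRCm38.p6, with a match to the ETS core CCGGAA and a match to the NRF1 motif (GCGC, any base, TGCGC) in capitals:

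Ftsj3-Psmc5: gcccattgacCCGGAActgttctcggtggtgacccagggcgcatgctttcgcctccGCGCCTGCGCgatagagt

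Both motifs were searched on both strands of the 300-base promoter windows of 9612 tested genes, and 32.345% of them hold the ETS core and 11.798% the NRF1 motif. Of 26 proteasome genes with a window, 15 hold the ETS core and 6 the NRF1 motif. A match is a run of letters and not a measured site. Ftsj3 was at 193 ± 31 CPM in WT (SD, n = 5) and 197 ± 23.4 in HET (SD, n = 9), a ratio of 1.017 ± 0.0834 (SE) and a two-sided exact permutation p of 0.825. Its sign changes between fits, as the closing paragraphs give.

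Of the 12 nearest tested protein-coding genes around Smarcd2, 6 on each side, Psmc5 alone passed in HET. Ddx42, an RNA helicase gene beyond Ftsj3, was at 220 ± 14.7 CPM in WT and 205 ± 16.7 in HET (SD, n = 5 and 9), with an adjusted p of 0.553. Tcam1, a testicular cell adhesion gene on the Smarcd2 side, was at 3.07 ± 0.758 CPM in WT and 2.86 ± 0.788 in HET, and fell in KO to 1.05 ± 0.643 CPM (adjusted p 0.00146). Pecam1, an adhesion molecule of endothelial and blood cells, was at 74.9 ± 10 CPM in WT and 87.1 ± 15.7 in HET (adjusted p 0.51), and rose in KO to 122 ± 18.9 CPM (adjusted p 0.000336). For both genes the HET and WT ranges overlap.

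Both genes also had lower levels in HET libraries of CMP, the common myeloid progenitors sorted in the same study. Psmc5 was at 236 ± 13.7 CPM in 3 CMP WT libraries and 165 ± 30.1 in 7 CMP HET libraries (SD), with 7 of 7 below every WT library and a ratio of 0.698. The label of 1 of these 7 gives a later age than those of the other libraries. The Psmc5 log2 fold change in CMP was -0.51 ± 0.15 (SE) with an unadjusted p of 0.00292 and an adjusted p of 0.999 (edgeR). Smarcd2 was at 115 ± 21.23 CPM in CMP WT and 47.1 ± 20 in CMP HET (SD), again with 7 of 7 below. In GMP and MEP the Psmc5 spread was wide, from 14.6 to 414 CPM and from 139 to 652 CPM among the 7 HET libraries each. The HET and WT ranges of Psmc5 overlap there. Psmc5 lay below every WT library in 4 of 7 GMP and 6 of 7 MEP HET libraries, at ratios of 0.609 and 0.953. Psmc5 did not pass the adjusted test in GMP or MEP. Smarcd2 lay below every WT library in 7 of 7 HET libraries of GMP and of MEP, at ratios of 0.515 and 0.579. It did not pass the adjusted test in either.

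Beyond Psmc5, no gene passed the adjusted test in edgeR. There 767 genes were higher in HET with an unadjusted p under 0.05 (5.53%) and 765 were lower (5.51%), and the median log2 fold change of all genes was 0.02. In KO against WT, with the same WT libraries, 1322 genes rose (9.53%) and 1288 fell (9.28%) with an adjusted p under 0.05. DESeq2 called 31 genes in HET, 2 higher and 29 lower. limma voom called 4, which are Psmc5, Ebi3, Orc2 and Gars. Without the library HT21.6, edgeR called 27 genes, 9 higher and 18 lower. No gene passed edgeR's interaction test for a HET effect that differs between series 19 to 21 and series 22 and 24. At an unadjusted p under 0.05 there were 438 of 13878 genes. Series 22 and 24 hold 2 WT and 2 HET libraries, so this test could miss such differences.

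Among the genes with the smallest p on the lower side, 5 are described here, none of which passed in edgeR with all libraries. Tcp1, a subunit of the TRiC/CCT chaperonin that folds actin and tubulin, was at 1094 ± 64.1 CPM in WT and 896 ± 98.1 in HET. Hspa4, an Hsp110 nucleotide exchange factor, was at 574 ± 58.3 CPM in WT and 443 ± 48.1 in HET. Dnaja2, an Hsp40 co-chaperone, was at 705 ± 40.8 CPM in WT and 582 ± 58.3 in HET. Gars, the glycyl-tRNA synthetase, was at 415 ± 31.5 CPM in WT and 337 ± 27.8 in HET, and Naa15, part of the N-terminal acetyltransferase A on the ribosome, at 393 ± 21.35 and 316 ± 30.6 (all SD, n = 5 and 9). In each of these 5 genes 8 of 9 HET libraries lay below every WT library, the other being HT21.6. Their log2 fold changes lay between -0.28 and -0.38 in edgeR, with adjusted p between 0.217 and 0.250. All 5 passed in DESeq2 (adjusted p 0.0123 for Hspa4 and Gars, 0.0138 for Naa15, 0.0147 for Dnaja2 and 0.0226 for Tcp1) and in edgeR without HT21.6 (adjusted p 0.0233 to 0.0413).

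Orc2, a subunit of the origin recognition complex that loads the replicative helicase, had the next smallest p after Psmc5. It was at 168, 159, 169, 181 and 155 CPM in the libraries WT19.2, WT21.1, WT21.5, WT22.8 and WT24.10. It lay between 119 and 151 CPM in the 9 HET libraries with a median of 125, all 9 below every WT library. The log2 fold change was -0.36 ± 0.07 (SE) with an adjusted p of 0.107 in edgeR, 0.000599 in DESeq2 and 0.0182 in limma voom. Col4a3bp, the ceramide transfer protein, was lower in 9 of 9 HET libraries as well, at 27.4 ± 3.32 CPM in WT and 19.8 ± 2.75 in HET (SD, n = 5 and 9). Pmpcb, the beta subunit of the mitochondrial processing peptidase, and Plaa, which binds ubiquitin, had log2 fold changes of -0.28 and -0.32 with 8 of the 9 HET libraries lower than any WT library.

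Among the genes higher in HET, Ebi3, the beta subunit of the cytokines IL-27 and IL-35, came first. It was at 45.3, 38.3, 42.2, 37.3 and 43.6 CPM in the libraries WT19.2, WT21.1, WT21.5, WT22.8 and WT24.10, and at 65.1, 62.8, 61.1, 55.5, 55.5, 60.7, 45.4, 67.6 and 55.1 CPM in HT19.1, HT19.3, HT19.4, HT20.4, HT20.5, HT21.4, HT21.6, HT22.6 and HT24.2. All 9 HET libraries lay above every WT library, HT21.6 by the narrowest margin. The log2 fold change was 0.51 ± 0.10 (SE) with an adjusted p of 0.138 in edgeR and 0.0237 in limma voom. Gimap1, a GTPase of lymphocyte survival, was at 101 ± 7.22 CPM in WT and 123 ± 8.42 in HET (SD, n = 5 and 9), with 9 of 9 above every WT library and an adjusted p of 0.247 in edgeR and 0.0138 in DESeq2. Mink1, a Ste20-family kinase gene, was at 5.37 ± 0.312 CPM in WT and 8.72 ± 1.48 in HET, also with 9 of 9 above.

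The other genes of the 10 with the smallest p on the higher side are of mixed function. Rin3, a guanine nucleotide exchange factor for Rab5, was at 31.9 ± 3.53 CPM in WT and 42.9 ± 4.38 in HET. Dok2, an adaptor that dampens receptor tyrosine kinase signals in myeloid cells, was at 103 ± 9.02 CPM in WT and 138 ± 20.48 in HET. Mfge8, a secreted bridge between apoptotic cells and phagocytes, was at 40 ± 4 CPM in WT and 53.1 ± 7.07 in HET. Nlrc5, the activator of MHC class I genes, was at 1.09 ± 0.434 CPM in WT and 3.13 ± 1.15 in HET (all SD, n = 5 and 9). In these 4 genes 8 of 9 HET libraries lay above every WT library and HT21.6 did not. Cttn (cortactin), Aqp1 (a water channel) and Xylt2 (a xylosyltransferase of proteoglycan synthesis) had log2 fold changes of 0.75, 0.79 and 0.72, with adjusted p between 0.217 and 0.250.

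Of the 19 genes with the smallest p other than Psmc5, 10 higher and 9 lower, HT21.6 was the HET library nearest to WT in 16. Its Smarcd2 and Psmc5 levels, 21.9 and 164 CPM, were those of the HET group. It also had the highest Afp and Alb levels, RNAs of fetal hepatocytes, at 90.7 and 33.4 CPM, against 6.75 to 8.15 and 1.56 to 3.02 CPM in WT. Summed over 25 hepatocyte genes HT21.6 was at 241 CPM and the WT libraries at 82.6 to 90.1 CPM. Other HET libraries also lay above every WT library, HT22.6 at 165 CPM, HT24.2 at 133 CPM and HT19.4 at 118 CPM. So did HT20.5 at 104 CPM, HT20.4 at 102 CPM and HT19.3 at 99.9 CPM. HT19.1 and HT21.4, at 89.5 and 88.6 CPM, lay within the WT range. The 9 KO libraries, at 114 to 145 CPM, lay above every WT library. Whether these hepatocyte gene levels have a part in the other values was not tested.

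**Figure D2:**
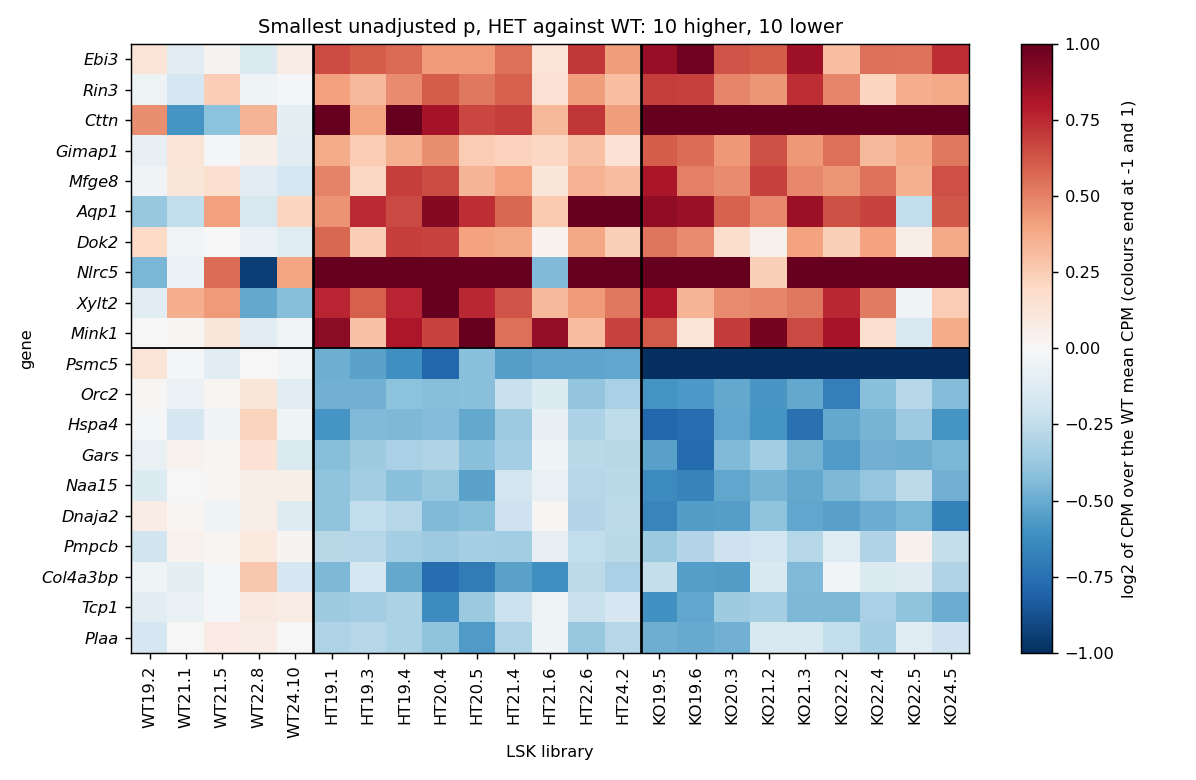
Level of the 10 higher and 10 lower genes with the smallest unadjusted p between HET and WT, by gene (rows) and LSK library (columns), as log2 of CPM over the WT mean CPM. HT21.6 is pale in most rows, and the KO columns carry the colours of the HET columns in most rows.

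The KO libraries give these genes a second set of values, measured against the same 5 WT libraries. Ebi3 was at 66.5 ± 9.37 CPM in KO, Gimap1 at 143 ± 10.3, Cttn at 33.2 ± 3.55 and Rin3 at 45.3 ± 5.49 (SD, n = 9), and all 4 rose against WT with log2 fold changes between 0.50 and 1.34. Hspa4 was at 382 ± 38.6 CPM in KO, Gars at 293 ± 22.37, Dnaja2 at 486 ± 28.9 and Orc2 at 117 ± 9.73 (SD, n = 9), and all 4 fell with log2 fold changes between -0.50 and -0.59. Other genes were no further from WT in KO than in HET. Xylt2 was at 18.1 ± 4.53 CPM in HET and 15.2 ± 2.58 in KO, and Col4a3bp at 19.8 ± 2.75 in HET and 22.7 ± 3 in KO (SD, n = 9 each); neither passed in KO. Because both comparisons use the same WT libraries, chance deviations of those 5 libraries enter both.

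Seen from the KO side, 6 genes with large KO rises had a mean CPM in HET closer to WT than to KO. They were chosen by their KO values, which by itself can place HET nearer to WT. None of them passed the midpoint test given below. Mycl, a Myc-family factor of dendritic cells, was at 2.86 ± 0.241 CPM in WT, 4.46 ± 1.52 in HET and 13.9 ± 6.01 in KO (SD, n = 5, 9 and 9). Rsad2 (viperin, an antiviral enzyme) was at 7.47 ± 2.08, 11.1 ± 5.28 and 35.8 ± 14.4 CPM, and Usp18, which removes ISG15 and restrains interferon receptor signalling, at 9.06 ± 3.53, 14.9 ± 8.51 and 41.9 ± 18.2 CPM in WT, HET and KO. Mx2 and Gbp9, antiviral GTPase genes, were at 1.8 ± 0.773 and 4.06 ± 2.31 CPM in WT and 3.69 ± 2.93 and 6.25 ± 2.11 in HET, against 10.3 ± 4.9 and 14.9 ± 4.13 in KO. Igfbp5, which binds insulin-like growth factors, was at 1.89 ± 0.688 CPM in WT, 4.24 ± 2.11 in HET and 9.39 ± 7.19 in KO. The library HT21.4 held the highest HET level of Usp18 and Mx2, at 36.1 and 10.2 CPM. Without it the Usp18 log2 fold change was 0.43 in place of 0.71, and the Mx2 log2 fold change 0.63 in place of 1.00. For each of these 6 genes the HET and WT ranges overlap and the adjusted p of HET against WT lay between 0.409 and 0.554.

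Among the largest falls in KO, HET and WT libraries overlapped for each gene given here. Btla, an inhibitory receptor of lymphocytes, was at 7.37 ± 1.83 CPM in WT, 6.76 ± 2.29 in HET and 2.33 ± 1.42 in KO. Bok, a Bcl-2 family member, was at 14.9 ± 2.67, 15.3 ± 2.06 and 6.78 ± 2.27 CPM, and Mcts2 at 12.2 ± 1.82, 10.2 ± 1.37 and 6.12 ± 1.35 CPM (all SD, n = 5, 9 and 9). The log2 difference of Bok between HET and WT was 0.04 ± 0.19 (SE), with a sign that differs between fits. Folr2, a folate receptor of macrophages, and Ctsg, the granule protease cathepsin G, fell in KO, but their WT values rest on few libraries. Ctsg was at 40 CPM in WT24.10 and at no more than 7.66 CPM in the other WT libraries. Its log2 difference between HET and WT was -0.40 with all WT libraries and 0.65 without WT24.10. Folr2 was at 11.2 ± 8.35 CPM in WT and 6.41 ± 7.28 in HET.

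Whether 1 copy lies midway between 2 copies and none was tested as HET against the mean of WT and KO on the log2 scale. Smarcd2 was the single gene past the threshold (0.00721% of the genes tested). Its KO level is near 0, so the midpoint on the log scale lies far below the midpoint in CPM. In CPM the HET drop was 40.7% of the KO drop with all libraries and 48.4% without HT20.5. At an unadjusted p under 0.05, 722 genes lay above the midpoint and 619 below it, and DESeq2 called 19 genes, 5 above and 14 below.

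Genes that differed between KO and WT in other progenitors give a direction from libraries that share no control with the LSK comparison. The CMP comparison holds 4 KO and 3 WT libraries. Its KO libraries CMP_M34_KO_13 and CMP_M34_KO_15 have no WT or HET library with M34 in the title. What comes with M34 and what comes with loss of Smarcd2 thus cannot be fully told apart in CMP. In CMP, 119 genes rose in KO against WT (1.02% of those tested) and 96 fell (0.823%). Smarcd2 and Psmc5 were taken out, which left 119 and 94. All 119 that rose in CMP KO were tested in LSK, and 99 of them lay above 0 in LSK HET against WT. That is 83.2%, against 53.3% of all genes tested, and the median log2 fold change was 0.19, against 0.02 for all genes. With an unadjusted p under 0.05, 25 of these 119 were higher and 0 were lower, against 5.53% and 5.51% of all genes. Of the 94 that fell in CMP KO, 85 were tested in LSK, and 58 of them lay below 0 with a median of -0.08. Above 0 lay 31.8% of the 85, against 53.3% of all genes. Their median was -0.07 within series 19 to 21 and -0.0094 within series 22 and 24. With an unadjusted p under 0.05, 7 of the 85 were lower and 1 was higher, against 5.51% and 5.53% of all genes.

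The level of the 119-gene set differed between LSK libraries in the same order as the gene dose. As the median over its genes of log2 CPM less each gene's mean over the 23 libraries, it was -0.32, -0.27, -0.31, -0.29 and -0.23 in the libraries WT19.2, WT21.1, WT21.5, WT22.8 and WT24.10. In HET it was 0.0022 in HT19.1, -0.06 in HT19.3, -0.08 in HT19.4, -0.19 in HT20.4, -0.12 in HT20.5, -0.08 in HT21.4, -0.34 in HT21.6, -0.14 in HT22.6 and -0.22 in HT24.2. In KO it lay between 0.07 and 0.46. So 8 of 9 HET libraries lay above every WT library and below every KO library, and HT21.6 lay below every WT library. The level of the set that fell in CMP overlapped between all 3 groups, with -0.13 to 0.26 in HET and 0.03 to 0.37 in WT.

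The CMP set is of mixed function. Of its 119 genes, 6 stand in the interferon list, 3 in the lymphoid list and 3 among p53 targets. Without the 6 genes of the interferon list, 93 of 113 lay above 0 in LSK HET, with a median of 0.19. Those 113 still hold interferon-induced genes outside that list, such as Ifi35, so this count does not set interferon genes apart. The members with the smallest p in LSK HET were Ebi3 and Gimap1, given above, then Ppcdc, an enzyme of coenzyme A synthesis, Rab37, a Rab GTPase of secretory granules, and Ifi35, an interferon-induced protein. Ppcdc was at 44.8 ± 4.12 CPM in WT and 57.8 ± 7.88 in HET, Rab37 at 32 ± 3.59 and 41.9 ± 6.06, and Ifi35 at 18.6 ± 2.39 and 24.9 ± 5.37 (SD, n = 5 and 9). In the set that fell in CMP KO, C1galt1c1, the chaperone of core 1 O-glycosylation, was at 32.6 ± 4.82 CPM in WT and 26.8 ± 2.32 in HET, and Hsp90b1, the Hsp90 of the endoplasmic reticulum, at 1107 ± 93.6 and 873 ± 190 (SD, n = 5 and 9).

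**Figure D3:**
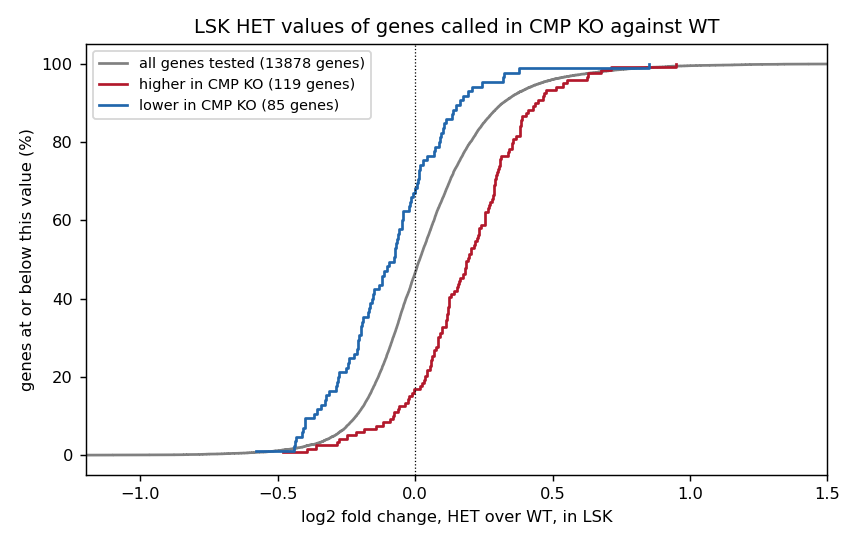
Cumulative distribution of the LSK log2 fold change of HET over WT for the 119 genes that rose and the 85 tested genes that fell in CMP KO against WT, and for all 13878 genes tested in LSK. The curve of the genes that rose in CMP KO lies to the right of all genes, and the curve of those that fell lies to the left by less.

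GMP and MEP gave few genes: in GMP KO 5 rose (0.0409%) and 20 fell (0.163%), and in MEP KO 0 rose (0%) and 1 fell (0.00856%), which is Smarcd2. Of the 5 that rose in GMP, 3 lay above 0 in LSK HET, and of 9 tested that fell in GMP, 4 lay below 0. These counts are too small to describe a direction.

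Proteasome and chaperone genes lay mostly below WT in HET. Of 32 proteasome subunits, 26 lay below 0 in HET, with a median log2 fold change of -0.10, while 53.3% of all genes lay above 0. With an unadjusted p under 0.05, 7 were lower and 0 were higher, against 5.51% and 5.53% of all genes. Beside Psmc5 these include Psmb4, a core subunit, at 280 ± 24.9 CPM in WT and 228 ± 33.4 in HET, Psma5 at 121 ± 6.81 and 107 ± 11.7, and Psmd6 of the cap at 287 ± 19.29 and 249 ± 33 (SD, n = 5 and 9). Psmc5 alone of the proteasome genes passed the adjusted test in edgeR. All 8 Cct chaperonin genes lay below 0, a list added after values were seen. An unadjusted p under 0.05 was reached by 5 of the 8, against 5.51% of all genes on the lower side. Summed over the 8 genes, CPM was 8002 to 8494 in WT and 6315 to 8085 in HET, where HT21.6 held the highest value. Cct8, Cct4 and Cct6a had log2 fold changes of -0.22, -0.27 and -0.21 and did not pass in edgeR. DESeq2 called all 3 (adjusted p 0.0188, 0.0465 and 0.0465), and edgeR without HT21.6 called Cct4 (adjusted p 0.0233).

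Of 15 heat shock genes, 4 were lower at an unadjusted p under 0.05 and 0 were higher, against 5.51% and 5.53% of all genes. Hspd1 and Hspe1, the mitochondrial chaperonin and its lid, were at 670 ± 27.7 and 138 ± 9.67 CPM in WT and 589 ± 51.1 and 115 ± 22.46 in HET, and Hspa9, the mitochondrial Hsp70, at 1012 ± 93.4 and 849 ± 62.7 (SD, n = 5 and 9). Of 27 unfolded protein and stress response genes, 5 were lower and 1 was higher, against the same shares of all genes. Pdia3, a disulfide isomerase, was at 1700 ± 109 CPM in WT and 1368 ± 205 in HET. Atf4, the factor of the integrated stress response, was at 137 ± 16.5 and 111 ± 13 CPM, and Ddit3, one of its targets, went the other way at 5.27 ± 0.929 and 7.07 ± 1.1 CPM (SD, n = 5 and 9). None of the heat shock or stress response genes passed in edgeR, and DESeq2 called Hspa4 and Hspa9 (adjusted p 0.0123 and 0.0465).

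The promoter of Hsp90b1 is shown because it carries the endoplasmic reticulum stress element, a motif of this list. Of 24 unfolded protein and stress response genes with a window, 7 hold a match to the element (19 letters, both strands), against 0.187% of the 9612 genes. The stretch is chr10:86705510-86705694, minus strand, upstream of the start, with its 2 matches in capitals:

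Hsp90b1: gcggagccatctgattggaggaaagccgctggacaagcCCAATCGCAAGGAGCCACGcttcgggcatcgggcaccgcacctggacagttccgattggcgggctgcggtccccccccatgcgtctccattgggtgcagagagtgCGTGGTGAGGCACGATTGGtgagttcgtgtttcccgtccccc

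Interferon response genes rose in KO, and in HET no member passed the adjusted test in edgeR. In HET 1 of 32 had an unadjusted p under 0.05, no more than the 5.53% of all genes. All 32 lay above 0, with a median log2 fold change of 0.40, of 0.15 within series 22 and 24 and of 0.24 without HT21.4. In KO 29 of 32 rose, with a median of 1.41. The single gene was Stat2, a transcription factor of interferon signalling. It was at 22.53 to 29.28 CPM in WT and 22.7 to 43.3 CPM in HET, with 4 of 9 HET libraries above every WT library. Irf9, its partner, was at 59.6 ± 14 CPM in WT and 73.7 ± 15.3 in HET, and Dhx58, an RNA sensor of the RIG-I family, at 15.5 ± 6.05 and 22.3 ± 6.92 (SD, n = 5 and 9). The summed CPM of the list was 582 to 1026 in WT and 640.5 to 1511 in HET. The highest HET value belongs to HT21.4, and 4 HET libraries lay above every WT library. Interferon genes vary together, so the 32 signs are not independent.

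The interferon-stimulated response element (GAAA, any 2 bases, GAAA), searched on both strands, stands in 12 of 21 interferon genes with a promoter window and in 4.005% of the 9612 genes. The stretch of Stat2 is shown as the gene with the smallest p in HET, and that of Rsad2 as one of the largest KO changes. They are chr10:128270248-128270325, plus strand, and chr12:26456523-26456612, minus strand, with the element in capitals:

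Stat2: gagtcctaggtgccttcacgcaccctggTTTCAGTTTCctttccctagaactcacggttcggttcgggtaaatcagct

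Rsad2: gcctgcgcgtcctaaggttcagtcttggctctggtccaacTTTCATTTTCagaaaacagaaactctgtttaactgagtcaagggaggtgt

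Antigen presentation and lymphoid genes did not pass the adjusted test in edgeR. All 9 tested dendritic cell and MHC class II genes lay above 0 (median 0.33). Of these, 4 had an unadjusted p under 0.05, against 5.53% of all genes on the higher side. H2-DMa and H2-DMb1, the chains that load peptides on MHC class II, were at 21.35 ± 1.04 and 2.61 ± 0.909 CPM in WT and 27.2 ± 4.41 and 4.28 ± 1.27 in HET. Itgax (CD11c) was at 3.81 ± 0.394 and 5.46 ± 1.25 CPM, and Flt3, the receptor that drives lymphoid and dendritic progenitors, at 423 ± 50.5 and 473 ± 41 CPM (SD, n = 5 and 9). All 18 tested lymphoid genes lay above 0, with a median of 0.29, of 0.31 within series 19 to 21 and of -0.05 within series 22 and 24. Flt3 was the 1 of 18 with an unadjusted p under 0.05, a share near the 5.53% of all genes.

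Genes of mitosis lay below WT in HET, and their level differed between the series. All 30 lay below 0, with a median of -0.37. At an unadjusted p under 0.05, 4 of them were lower, against 5.51% of all genes. The summed CPM of the list was 2993 to 4417 in the 3 WT libraries of series 19 to 21. It was 2957 to 4564 in the 7 HET libraries of those series, and these ranges overlap. It was 7720 and 7721 in the 2 WT libraries of series 22 and 24, and 5739 and 6062 in the 2 HET libraries. WT has 2 of its 5 libraries in series 22 and 24 and HET 2 of its 9. The median was -0.04 within series 19 to 21, -0.39 within series 22 and 24 and -0.13 with series as a block. Ccna2 (cyclin A2) was at 388 ± 143 CPM in WT and 278 ± 69.7 in HET, Cdc20 at 139 ± 41.1 and 107 ± 25.3, Cenpa at 140 ± 30.5 and 113 ± 19.23 and Ccnb2 at 186 ± 24.9 and 161 ± 10.3 (SD, n = 5 and 9). None passed the adjusted test in edgeR.

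Of 35 DNA replication genes, 17 lay above 0 and the median was -0.0050, with Pcna, the sliding clamp, at 307 ± 8.85 CPM in WT and 271 ± 35.5 in HET, and Pold1, a polymerase subunit, at 99.2 ± 7.07 and 122 ± 34.7 (SD, n = 5 and 9). The Pold1 mean rests on HT20.4, at 210 CPM. Of 23 p53 targets, 2 were higher and 0 lower at an unadjusted p under 0.05, close to the 5.53% of all genes. They were Cdkn1a, the cell cycle inhibitor p21, at 3.39 ± 1.46 and 5.31 ± 2.17 CPM, and Phlda3 at 2.55 ± 1.01 and 4 ± 1.47 CPM.

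The list of BAF subunit genes leaves out Smarcd2, which was lower in HET as given above. Of its 23 tested genes, 5 were higher and 0 lower at an unadjusted p under 0.05, against 5.53% and 5.51% of all genes. None of the 23 passed the adjusted test. Arid1b, the largest DNA-binding subunit of 1 class of BAF, was at 34.5, 27, 38.2, 29.1 and 34.5 CPM in the libraries WT19.2, WT21.1, WT21.5, WT22.8 and WT24.10. It was at 36.8 to 58.9 CPM in HET, with 8 of 9 above every WT library, and its log2 fold change was 0.37 ± 0.11 (SE) with an adjusted p of 0.336. Smarcc2, a core scaffold, was at 54 ± 6.19 CPM in WT and 63.4 ± 7.45 in HET (SD, n = 5 and 9). Summed over the list the ranges overlap, with 9949 to 12553 CPM in WT and 10278 to 14521 in HET. Most of this sum is Actb, a member of the list, at 8124 to 10781 CPM in WT and 8332 to 12797 in HET. The sum thus says little about the other subunits.

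Stem cell genes lay mostly above 0, 23 of 29 against 53.3% of all genes, with a median log2 fold change of 0.10. With an unadjusted p under 0.05, 2 of the 29 were higher and 0 were lower, against 5.53% and 5.51% of all genes. Robo4, a guidance receptor of stem cells and endothelium, was at 16.9 ± 2.14 CPM in WT and 25.9 ± 4.51 in HET (SD, n = 5 and 9), with 8 of 9 HET libraries above every WT library and an adjusted p of 0.336 in edgeR. Of 16 megakaryocyte genes, 9 lay above 0, a share near the 53.3% of all genes, with a median of 0.18. The median was -0.01 within series 19 to 21 and 0.55 within series 22 and 24. Among the members with the smallest p were the platelet glycoprotein genes Gp1ba and Gp9. They were at 1.6 ± 0.313 and 9.22 ± 2.28 CPM in WT and at 2.41 ± 0.671 and 12.5 ± 2.56 CPM in HET. Neither list had a gene that passed the adjusted test in edgeR.

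Granulocyte genes, the lineage for which Smarcd2 is known, did not separate HET from WT in these early cells. Of 16 tested granule genes, 0 had an unadjusted p under 0.05, and 8 of the 24 listed, Elane and Lcn2 among them, were too low to be tested. Mpo, myeloperoxidase, was at 678 ± 98.8 CPM in WT and 839 ± 255 in HET (SD, n = 5 and 9), with an adjusted p of 0.58. Of 22 granulocyte-monocyte transcription factors, 1 was higher at an unadjusted p under 0.05, no more than the 5.53% of all genes. It was Irf5, at 30.2 ± 4.63 CPM in WT and 35.7 ± 4.68 in HET. Of 28 erythroid genes, 24 lay above 0, against 53.3% of all genes. At an unadjusted p under 0.05, 2 were higher, a share near the 5.53% of all genes. These were Aqp1 and the heme enzyme gene Urod. Urod was at 54 ± 5.77 CPM in WT and 65 ± 9.73 in HET. The summed erythroid CPM was 1091 to 3076 in WT and 1038 to 10081 in HET, where HT24.2 held the highest value.

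**Figure D4:**
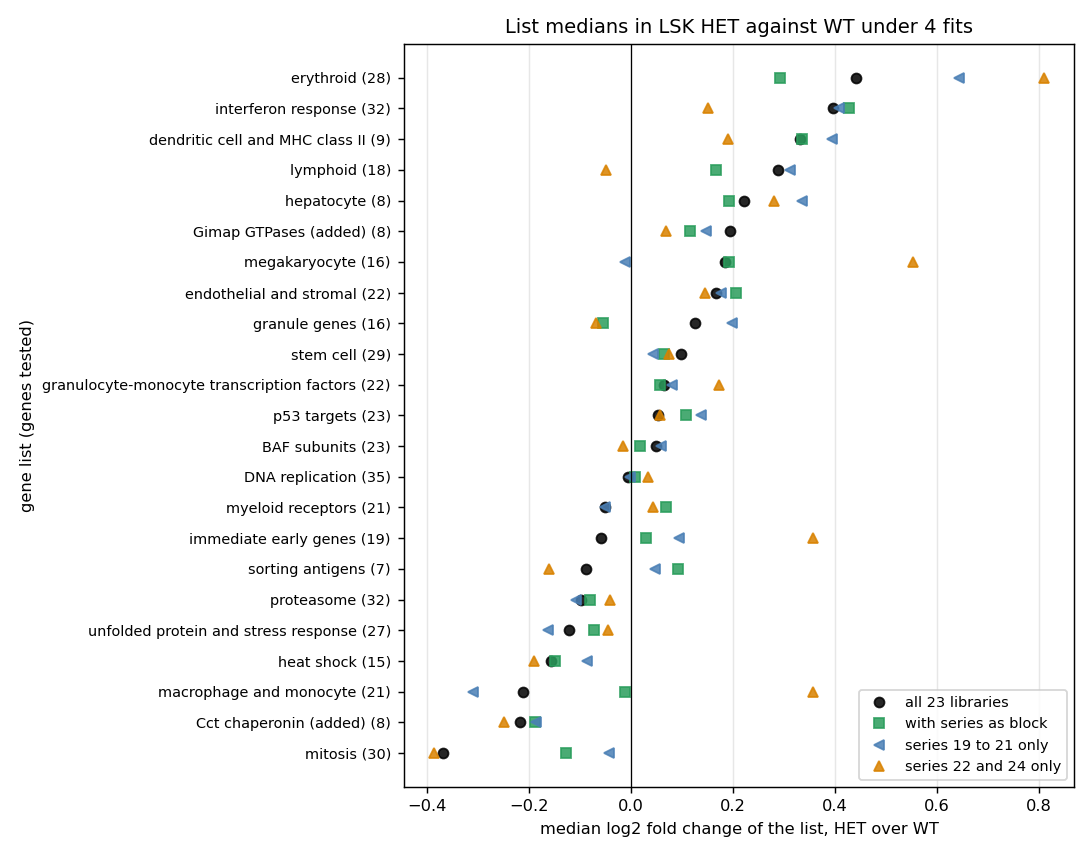
Median log2 fold change of HET over WT for 23 gene lists in 4 fits: all 23 libraries, series as a block, series 19 to 21 only and series 22 and 24 only. The mitosis median lies near 0 in series 19 to 21, the interferon and Cct medians keep their side of 0 in all 4, and lymphoid, macrophage and megakaryocyte medians do not.

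**Figure D5:**
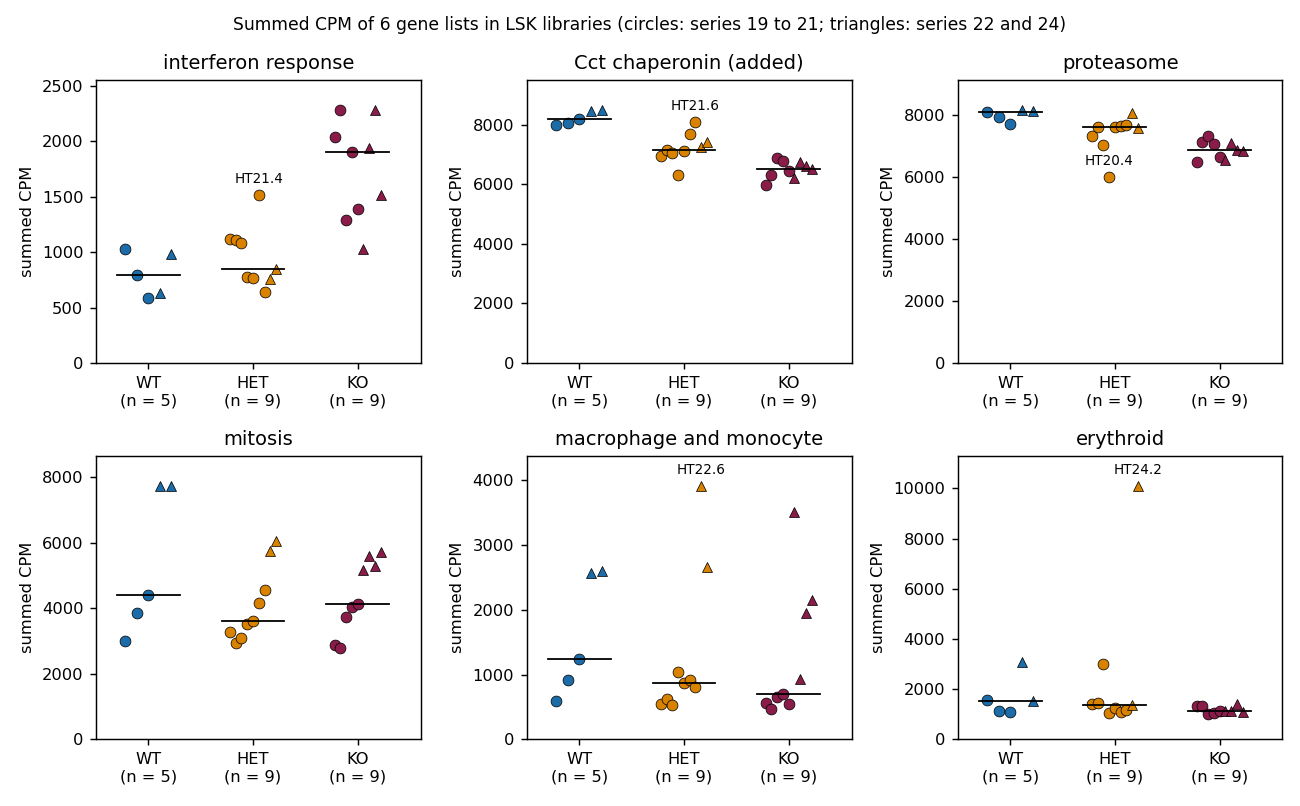
Summed CPM of 6 gene lists in each LSK library, 1 point per library, with a line at the median of each group. Series 22 and 24 hold the highest mitosis and macrophage sums among WT and HET libraries, and HT21.4, HT21.6 and HT24.2 hold the highest HET values of the interferon, Cct and erythroid lists.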

How the data were processed

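Full-length cDNA libraries (Smart-seq2, per the labels' protocols) of sorted LSK cells were sequenced, and the authors deposited raw read counts per gene for each library, and the submitters' processing notes list featureCounts, mm10 and GRCm38. Aligner, annotation and tool versions: not given in the sources used here. Spike-in rows were left out of library sizes, and 0 columns of the tables were unmatched.

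Counts of all 23 LSK libraries entered 1 edgeR 4.0.16 quasi-likelihood fit (R 4.3.3, limma 3.58.1, TMM scaling, filterByExpr with a minimum count of 10 and a minimum total of 15), with Benjamini-Hochberg adjustment over 13878 genes and a threshold of 0.05. DESeq2 1.42.0 and limma voom were alternatives. CMP, GMP and MEP were fitted separately. The edgeR step was tested on simulated data. WT and HET libraries of 1 series deviated together (correlations of deviations 0.320, 0.255, 0.453 and 0.349), which was taken as pairing, and series as a block was an alternative. Pairs from different series lay between -0.459 and 0.470, the highest being HET of series 24 with WT of series 22, so the split between series 19 to 21 and series 22 and 24 enters these values.

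Named genes are the Smarcd genes, genes past the threshold, the 10 rises and 10 falls with the smallest unadjusted p, the largest KO changes, the midpoint genes, 6 neighbours a side, up to 4 members per list and up to 5 per CMP set. Predicted genes were passed over. The members and lists were chosen with earlier results of these data known. Names are from GENCODE and promoters from RefSeq. Intervals and SDs do not cover amplification error. The values of 1 gene that the naming rule takes in are not reported here.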

Additional observations from a re-analysis of the deposited data

Results flagged for a closer look

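Of 164 groups of values tested for a library far from the others, 19 were flagged, 16 in HET and 3 in WT, where chance alone flags about 1 in 20. HT21.6 was the highest HET library for Afp at 90.7 CPM, Alb at 33.4 CPM, Cct8 at 1535 CPM, Dnaja2 at 710 CPM (710.5), Gars at 403 CPM, Plaa at 217 CPM and Pmpcb at 143 CPM. HT20.5 was the highest for Smarcd2 at 67.4 CPM, and it had the most reads in genes, 24069833. HT20.4 was the highest for Arid1b at 58.9 CPM, Pold1 at 210.3 CPM and Xylt2 at 29.2 CPM. HT21.4 was the highest for Mx2 at 10.2 CPM and Usp18 at 36.1 CPM. HT19.4 was the highest for Ddit3 at 9.54 CPM and Itgax at 8.22 CPM. Among WT libraries, WT24.10 was the highest for Ctsg at 40.01 CPM, WT21.5 the highest for Ppcdc at 51.9 CPM and WT19.2 the lowest for Pmpcb at 132 CPM.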

How the results depend on the processing

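The number of genes that passed between HET and WT, 1 in edgeR with all libraries, was 2 with no count filter (Psmc5 and Vsig4), 2 with series as a replicate block (Psmc5 and Smarcd2), 2 with the block and without HT20.5, 0 within series 19 to 21, 0 within series 22 and 24, 31 in DESeq2 and 4 in limma voom, and 1 to 27 when each library was left out, with 27 without HT21.6. Within series, 10 and 4 HET and WT libraries remain, respectively. Smarcd2 had a log2 fold change of -1.02 with the block, -1.04 with the block and without HT20.5, and -0.92 to -0.62 leaving out each library. DESeq2 gave it no adjusted p. Psmc5 was at -0.56 within series 19 to 21, -0.52 within series 22 and 24, and -0.57 to -0.51 leaving out each library. Genes off the midpoint numbered 5 in series 19 to 21, 4 with macrophage level, 2 with spike-in share as covariate, 19 in DESeq2, and 1 to 8 leaving out each library, with 8 without KO22.4. Genes that passed for KO vs WT in LSK numbered 862 and 698 in the series groups, 1405 with a transcript length index, 1612 with spike-in share, and 1684 to 2959 leaving out each library, with 1684 without WT22.8. The median of the genes higher in CMP KO was 0.18 to 0.23 leaving out each library. Signs turned for some genes. The Bok log2 fold change was -0.052 with the block, -0.046 with the block and without HT20.5, -0.0097 with sex and the block, -0.027 in series 19 to 21, and -0.012 to 0.15 leaving out each library, with -0.012 without WT21.1 and -0.0035 without WT24.10. The Ftsj3 log2 fold change was -0.0024 with sex, -0.0067 with sex and the block, -0.029 without HT19.1 and HT21.4, -0.088 in series 22 and 24, -0.057 with spike-in share, and -0.048 to 0.10 leaving out each library, below 0 without HT21.4, WT21.1 or WT22.8. The Ctsg log2 fold change was 0.94 in series 19 to 21, and -1.09 to 0.65 leaving out each library, with 0.65 without WT24.10. In series 22 and 24, the Mcts2 log2 fold change was 0.023, the Stat2 log2 fold change -0.013, the Flt3 log2 fold change -0.048 and the Mpo log2 fold change -0.11. The cause was not tested. The block changed no other call among the genes named. MEP medians were not run, since no gene was left in those sets. Choices on sex labels, HT20.5 with the block, series, macrophage level, length, spike-in share and the interferon genes were added after seeing the data.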

Other observations

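Some genes known to respond to low oxygen are given here as values. They were chosen after their values were seen, from genes below the midpoint in some fits, so no test of that difference is given. Bnip3, a mitophagy receptor, was at 41.5 to 70.9 CPM in WT, 45.4 to 61.9 in HET and 84.4 to 242 in KO, so every KO library lay above every HET library. Slc16a3, a lactate exporter, was at 18.5 ± 4.32 CPM in the 5 WT libraries, 14.0 ± 2.52 in the 9 HET and 35.2 ± 12.2 in the 9 KO libraries (SD). Ankrd37 was at 10.8 ± 2.55, 11.1 ± 1.55 and 38.7 ± 16.5 CPM, and P4ha1, a collagen prolyl hydroxylase subunit, at 76.0 ± 14.0, 63.0 ± 12.8 and 126.8 ± 42.1 CPM in WT, HET and KO. Pgk1, a glycolytic enzyme, was at 108 ± 8.75, 90.8 ± 10.7 and 127 ± 23.1 CPM in WT, HET and KO, and did not pass in KO against WT in edgeR (adjusted p 0.139).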
